A study of Mus musculus with 4 samples.

Results

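Spink1, Serpina1a, Serpina1b, Serpina6, Itih2, Fga, Fgb and Fgg encode secreted plasma proteins of endoderm: protease inhibitors, a carrier protein of the inhibitor family and the chains of fibrinogen. These 8 genes were taken by name out of 20284 genes in a combined table of single-cell counts. The cells came from mouse embryoid bodies on day 9 of differentiation, which are aggregates of embryonic stem cells that form derivatives of several germ layers. In 1 group the stem cells had been given a pulse of DUX, which switches on genes of the early cleavage embryo (DUX-pulsed, 2 libraries), and in the other they were control stem cells (2 libraries). The labels give no strain, pulse length or interval before aggregation. The design text calls the libraries of a group biological replicates. The tests below compare 2 such libraries per group, and their estimate of the spread draws on other genes as well, so a p-value does not measure the spread of 1 gene alone.

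Spink1 is a Kazal-type inhibitor of trypsin, known from pancreas and embryonic gut. Serpina1a and Serpina1b are mouse copies of alpha-1-antitrypsin, an inhibitor of neutrophil elastase, and the related Serpina6 carries glucocorticoids instead of blocking a protease. Itih2 is a heavy chain of the inter-alpha-trypsin inhibitor, whose light chain bikunin is cut from the Ambp precursor. Fga, Fgb and Fgg encode the alpha, beta and gamma chains of fibrinogen, which liver cells assemble into 1 protein and thrombin turns into fibrin. Liver and yolk sac endoderm make many of these proteins, and HNF1, HNF4, FOXA and C/EBP factors are known activators of liver genes.

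The fibrinogen genes lie side by side on mouse chromosome 3 and the alpha-1-antitrypsin copies lie in 1 serpin cluster on chromosome 12, so their promoters are shown to let neighbouring and copied genes be compared by sequence. In mm10 the GENCODE models span chr3:83007724-83015049 for Fgg on the plus strand, chr3:83026076-83033627 for Fga on the plus strand and chr3:83040141-83049863 for Fgb on the minus strand. Serpina1a spans chr12:103853589-103863562 and Serpina6 spans chr12:103646630-103657212, both on the minus strand. The model of Serpina1b, chr12:103728156-103830373 on the minus strand, runs over Serpina1d. Itih2 lies at chr2:10094593-10131396 on the minus strand, and each of the 8 genes is annotated as protein coding. The lines that follow give the 250 bases before the RefSeq start in GRCm38.p6, 5′ to 3′ on the gene's strand, from chr12:103863620-103863869 for Serpina1a, chr12:103738190-103738439 for Serpina1b, chr3:83025903-83026152 for Fga, chr3:83049864-83050113 for Fgb and chr3:83007474-83007723 for Fgg. Capitals mark matches on either strand to an HNF1 site (GTTAAT), a FOXA site (TGTTTNC) and a C/EBP site (TTGCNNAA).
Serpina1a: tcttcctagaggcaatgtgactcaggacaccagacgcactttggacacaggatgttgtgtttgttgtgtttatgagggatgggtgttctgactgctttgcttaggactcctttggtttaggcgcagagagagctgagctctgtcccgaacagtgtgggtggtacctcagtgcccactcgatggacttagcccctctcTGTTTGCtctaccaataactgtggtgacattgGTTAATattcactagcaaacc
Serpina1b: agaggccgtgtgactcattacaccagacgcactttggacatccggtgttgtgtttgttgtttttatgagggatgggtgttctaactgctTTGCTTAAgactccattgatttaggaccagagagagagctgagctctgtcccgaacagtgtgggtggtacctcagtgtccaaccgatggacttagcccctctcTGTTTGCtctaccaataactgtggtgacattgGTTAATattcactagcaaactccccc
Fga: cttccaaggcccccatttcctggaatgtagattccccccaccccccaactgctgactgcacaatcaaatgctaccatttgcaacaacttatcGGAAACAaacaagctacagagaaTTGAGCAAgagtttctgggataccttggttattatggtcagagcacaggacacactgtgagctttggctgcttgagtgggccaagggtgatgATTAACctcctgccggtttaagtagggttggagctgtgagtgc
Fgb: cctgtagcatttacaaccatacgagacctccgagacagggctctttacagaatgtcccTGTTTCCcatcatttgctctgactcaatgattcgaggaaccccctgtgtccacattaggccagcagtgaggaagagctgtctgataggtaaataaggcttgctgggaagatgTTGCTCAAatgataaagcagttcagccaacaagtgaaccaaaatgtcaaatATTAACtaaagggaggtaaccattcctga
Fgg: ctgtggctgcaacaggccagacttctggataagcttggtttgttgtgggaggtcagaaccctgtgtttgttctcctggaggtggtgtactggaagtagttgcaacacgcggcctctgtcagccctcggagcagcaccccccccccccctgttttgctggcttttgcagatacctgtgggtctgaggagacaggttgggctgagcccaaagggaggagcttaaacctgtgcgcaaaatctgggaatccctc

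The HNF1 letters occurred in 4 of these 5 windows, in Serpina1a from -21 to -16, in Serpina1b from -26 to -21, in Fga from -43 to -38 and in Fgb from -29 to -24, counted back from the base before the start. Of 27025 mouse promoters cut to the same length, 6.52% held these letters. The FOXA letters were found in the same 4 windows and in 17.9% of all promoters. The window of Itih2, not printed here, held neither the HNF1 nor the FOXA letters. The C/EBP letters were found in Serpina1b, Fga and Fgb, and also in Itih2 from -33 to -26, against 9.55% of all promoters. The Fgg window held none of these letters, and no window of the 6 genes in the promoter table held the HNF4 letters CAAAGTNCA, the TATA letters TATAAA or the full HNF1 palindrome, which 1.21%, 13.0% and 0.007% of promoters held. The windows of Serpina1a and Serpina1b were 87.6% identical, while those of the fibrinogen genes were 45.8% to 46.7% identical to each other. Transcripts of the antitrypsin copies also resembled each other: 47.4% of the 100-base windows of Serpina1a, but 8.23% of those in its last 500 bases, occurred in another gene. For Serpina1b these shares were 19.2% and 1.25%. Reads from shared windows do not tell the copies apart, and their part in the counts of this pair was not tested. The search covered only related serpin, Spink, Itih and fibrinogen-like genes. Among these, no such window was shared by the other 6 genes.

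The cells kept (500 or more genes, mitochondrial share up to 10%) numbered 2063 and 1353 in the DUX-pulsed libraries and 2824 and 2636 in the control libraries, with 36462169 to 96344329 unique molecular identifiers (UMIs, which count captured RNA molecules) per library. Median mitochondrial shares were 4.01% and 4.54% in DUX-pulsed libraries and 6.22% and 6.42% in control libraries. Cells were grouped into 23 clusters, and 11 of them were called endoderm-gene clusters because at least 5 of 8 endoderm genes, such as Foxa1, Foxa2, Hnf4a and Epcam, were above their median over clusters. These clusters held 25.01% and 39.2% of DUX-pulsed cells and 79.3% and 88.1% of control cells. The DUX-pulsed endoderm lay mainly in clusters 4, 6, 9 and 15 and the control endoderm in clusters 5, 7, 9 and 18 to 22, so the groups were compared over the whole culture, over the 11 clusters together and within the clusters that both groups filled. The 8 genes were among the variable genes used for clustering, so their levels by cluster are given as a description. Levels are given as counts scaled to a library total of 1e6 (CPM), with edgeR's TMM factors where a test stands beside them and without these factors for pooled clusters and untested cell types. The part of the mitochondrial and endoderm shares in the results was not tested.

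Over the whole culture the 8 genes moved apart. Serpina6, Itih2 and Fgg were higher in DUX-pulsed cultures, Spink1 and Fgb were lower, and Serpina1a, Serpina1b and Fga did not pass the test (edgeR quasi-likelihood, Benjamini-Hochberg adjusted p under 0.05 over all genes tested). Of the 16140 genes tested, 26.7% were called, 15.6% higher and 11.1% lower. The libraries of the groups did not overlap for 7 of the 8 genes, against 67.6% of all genes tested. In such sums over cells, fewer cells of a type and less RNA per cell cannot be told apart. Over the 11 endoderm-gene clusters alone, 6 of the 8 genes were higher in DUX-pulsed cells, Spink1 was lower and Fgb did not pass, with 29.8% of 14653 genes called, 14.8% higher and 15% lower. The libraries did not overlap for 7 of the 8 there, against 66% of all genes.

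**Figure D1:**
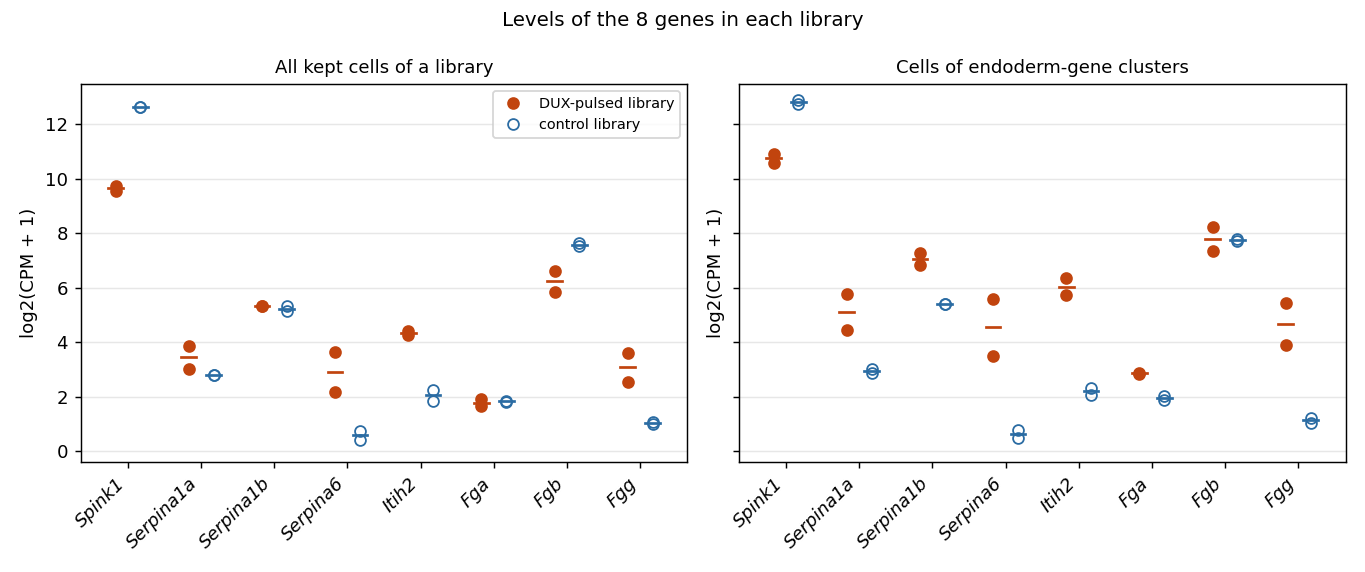
Level of each of the 8 genes in each library, as log2(CPM + 1) over all kept cells (left) and over the endoderm-gene clusters (right); filled points are DUX-pulsed libraries, open points control libraries and bars the mean of 2 libraries. Spink1 lies lower in DUX-pulsed libraries in both panels, while Itih2, Serpina6 and Fgg lie higher in both.

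Spink1, encoded at chr18:43728082-43737557 on the minus strand, was lower in DUX-pulsed cultures. Over the whole culture it reached 857 and 759 CPM in DUX-pulsed libraries, against 6426 and 6382 CPM in control libraries. The groups were far apart relative to their spread, at 808 ± 69.0 CPM in DUX-pulsed and 6404 ± 31.3 CPM in control libraries (SD, n = 2 each), or -2.99 as a log2 fold change (SE 0.17, adjusted p = 0.00196). Within the endoderm-gene clusters it reached 1553 and 1917 CPM in DUX-pulsed cells, against 7699.9 and 6832 CPM in control cells. That difference was again larger than the spread, with a change of -2.07 (SE 0.19, adjusted p = 0.000226). The share of cells in these clusters was lower in DUX-pulsed cultures too, and within the clusters 2 of the 8 endoderm genes of the rule were lower and 1 higher (median log2 fold change -0.27, against -0.02 for all genes). Of 20 visceral endoderm genes tested in these clusters, 14 were lower, 1 was higher and the median was -1.10. Their part in the result was not tested.

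By cluster, pooled over libraries, Spink1 was at 12304 CPM in cluster 19, 11747 in cluster 21, 11192 in cluster 22 and 10236 in cluster 20, and they each held at most 7 DUX-pulsed cells over both libraries. The control libraries were close to each other there, at 11831 and 12827 CPM in cluster 19 and 11565 and 12226 CPM in cluster 21. The clusters that held most DUX-pulsed endoderm were lower, at 1829 CPM in cluster 6, 1338 in cluster 4 and 272 in the liver-like cluster 15. Outside the endoderm-gene clusters Spink1 was also present in cluster 3, which carried parietal endoderm markers and passed 4 of the 8 endoderm genes. Its level there was 2115 and 2988 CPM in DUX-pulsed libraries, against 646 and 330 CPM in control libraries. Cluster 3 held 318 and 50 DUX-pulsed cells and 54 and 8 control cells, and this difference was not tested. It supplied 54.4% and 12.0% of the Spink1 UMIs of the DUX-pulsed libraries, against 0.23% and 0.01% of those of the control libraries.

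Spink1 was also counted in cells that should lack it. Cardiomyocyte-like cells had 22.9 and 22.9 CPM of Spink1 in DUX-pulsed libraries, against 83.4 and 74.6 CPM in control libraries. After thinning each cell to 5000 UMIs, 4.72% and 7.03% of DUX-pulsed cardiomyocyte-like cells had a Spink1 UMI, against 36.8% and 36.5% of control ones. Without thinning the shares were 15.8% and 21.4%, against 71.5% and 80.0%, at median depths of 21975 and 26907 UMIs in DUX-pulsed and 23240 and 24148.5 UMIs in control libraries. Levels of this size, such as the 13.9 and 6.18 CPM in DUX-pulsed cells of the Hox-gene cluster 0 against 59.8 and 100.3 CPM in control cells, were read as background. In the endoderm-gene clusters, at median depths of 29587.5 and 25187 UMIs in DUX-pulsed and 31371 and 29060 UMIs in control libraries, the thinned shares were 89.2% and 91.7% of DUX-pulsed cells and 98.9% and 99.4% of control cells. In endothelium-like cells Spink1 was at 24.0 and 10.6 CPM in DUX-pulsed libraries, against 427 and 599.7 CPM in control libraries. In erythroid-like cells it was at 6.65 and 6.24 CPM in DUX-pulsed libraries, against 1296 and 115 CPM in control libraries, where a single cell held 95.8% of the UMIs of control library 1. These control levels lie near or above the 236 and 603 CPM of Spink1 in control cells of cluster 15, so its level in those cells is not told apart from background. DUX-pulsed cells of cluster 15 were at 265 and 331 CPM. In the cardiomyocyte-, endothelium- and erythroid-like cells of DUX-pulsed libraries Spink1 was at 24.0 CPM or less. The other 7 genes were low in cardiomyocyte-like cells, with at most 3.67 CPM in any library, reached by Fgb, which was at 24.9 CPM in endothelium-like cells of control library 1. In cluster 9, an endoderm-gene cluster of shallow cells with a median of 1070 UMIs and 3.14% of 5056 genes called, Spink1 was lower in DUX-pulsed cells (-2.35, adjusted p = 0.000139). Outside the endoderm-gene clusters it was also called lower in clusters 0 (-2.92), 11 (-2.25) and 13 (-6.38), where 1.43%, 6.01% and 4.84% of genes were called. It did not pass in clusters 12 (-1.69) and 16 (-0.89). The part of background in the cluster 9 difference was not tested.

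**Figure D2:**
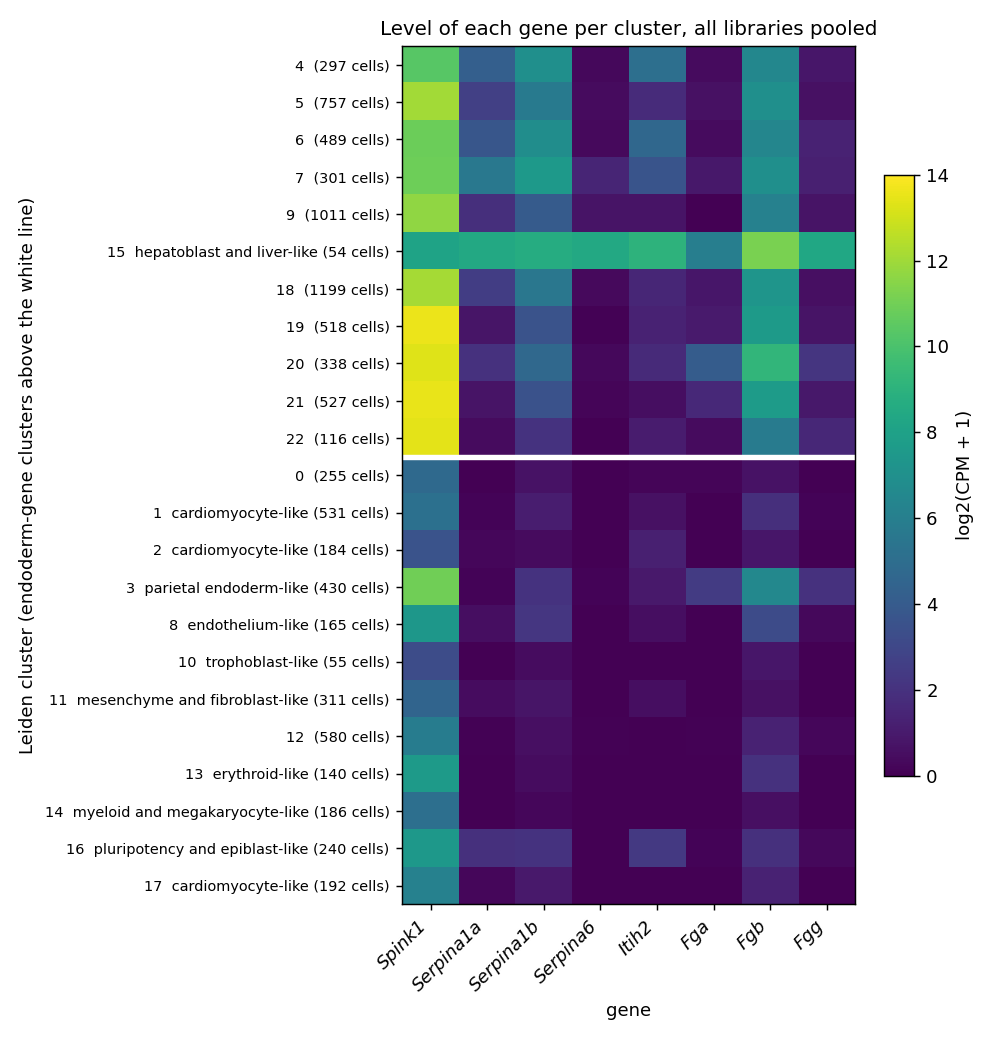
Pooled level of each of the 8 genes in each of the 23 clusters, as log2(CPM + 1), with the endoderm-gene clusters above the white line. Cluster 15 holds the highest level of 7 genes, and Spink1 is highest in clusters 19 to 22 and lower in cluster 15.

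The antitrypsin copies Serpina1a and Serpina1b did not pass over the whole culture and were higher in DUX-pulsed cells within the endoderm-gene clusters. Serpina1a was at 13.4 and 7.13 CPM in DUX-pulsed cultures and at 5.96 and 5.86 CPM in control cultures, and its log2 fold change was 0.80 (SE 0.31, adjusted p = 0.112). This rested on DUX-pulsed library 1: the change was 1.19 without library 2 (adjusted p = 0.00339) and 0.29 without library 1 (adjusted p = 0.393). Serpina1b was at 39.2 and 38.8 CPM in DUX-pulsed cultures and at 34.4 and 38.6 CPM in control cultures, and its change was 0.10 (SE 0.14, adjusted p = 0.65). Within the endoderm-gene clusters Serpina1a reached 53.2 and 20.9 CPM in DUX-pulsed cells, against 7.15 and 6.26 CPM in control cells, which is 2.47 on the log2 scale (SE 0.37, adjusted p = 0.00176). Serpina1b reached 155 and 112 CPM in DUX-pulsed cells, against 41.2 and 41.3 CPM in control cells, a change of 1.70 (SE 0.18, adjusted p = 0.000417). The libraries did not overlap in either case. Without the liver-like cluster 15 the changes were 1.31 for Serpina1a (adjusted p = 0.00271) and 1.5 for Serpina1b (adjusted p = 0.000305), and without DUX-pulsed library 1 the Serpina1a change was 1.64.

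The cells behind these copies differed between the groups. The liver-like cluster 15 supplied 68.3% and 48.7% of the Serpina1a UMIs in DUX-pulsed libraries, against 18.0% and 11.2% in control libraries. Clusters 4 and 6 supplied 69.3% and 81.5% of the Serpina1b UMIs in DUX-pulsed libraries, against 7.02% and 4.88% in control libraries. In control cultures the copies were present in cluster 7, led by Tm4sf4 and Onecut2, with 52.4 and 39.8 CPM of Serpina1a and 198 and 167 CPM of Serpina1b. Over the 23 clusters the log2 levels of the copies had a Pearson correlation of 0.913, a description over clusters that share libraries.

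Itih2 and Serpina6 had the largest rises of the set within endoderm, together with Fgg. Itih2 was at 20.5 and 18.2 CPM in DUX-pulsed cultures, against 2.59 and 3.77 CPM in control cultures, and its log2 fold change was 2.61 (SE 0.24, adjusted p = 0.00259). Within the endoderm-gene clusters it was at 81.0 and 51.7 CPM in DUX-pulsed cells and at 3.12 and 4.03 CPM in control cells, a change of 4.21 (SE 0.25, adjusted p = 5.69e-05). No library of 1 group reached those of the other. The Itih2 change did not rest on the liver-like cluster, since it was 3.38 without it (adjusted p = 7.92e-05). That cluster supplied 71.8% and 37.9% of Itih2 UMIs in DUX-pulsed libraries, and clusters 4 and 6 supplied 24.0% and 58.6%.

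Serpina6 was rare and uneven between the DUX-pulsed libraries. It had 721 and 128 UMIs in DUX-pulsed libraries, or 11.5 and 3.52 CPM, against 32 and 54 UMIs in control libraries, or 0.336 and 0.656 CPM. The log2 fold change was 3.94 over the whole culture (SE 0.66, adjusted p = 0.00961) and 2.85 without DUX-pulsed library 1 (adjusted p = 0.000477). Cluster 15 held 99.6% and 96.1% of the Serpina6 UMIs of DUX-pulsed libraries, against 40.6% and 44.4% of those of control libraries. Within the endoderm-gene clusters it was at 47.2 and 10.4 CPM in DUX-pulsed cells and 0.405 and 0.705 CPM in control cells, a change of 5.70 (SE 0.69, adjusted p = 0.000698), which was 4.22 without DUX-pulsed library 1 and 6.41 without library 2. Without cluster 15 the change was -0.68 (adjusted p = 0.61).

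The fibrinogen chains did not move together, although their genes are neighbours. Fga was at 2.71 and 2.12 CPM in DUX-pulsed cultures and 2.59 and 2.48 CPM in control cultures, with overlapping libraries and a change of -0.06 on the log2 scale (SE 0.26, adjusted p = 0.878). Fgb was at 97.8 and 56.8 CPM in DUX-pulsed cultures and 183 and 197 CPM in control cultures, a change of -1.29 (SE 0.27, adjusted p = 0.0181). Fgg was at 11.05 and 4.84 CPM in DUX-pulsed cultures and 1.11 and 0.985 CPM in control cultures, a change of 2.93 (SE 0.43, adjusted p = 0.00672). Fgb was thus lower and Fgg higher in both DUX-pulsed libraries. The Fgb call was lost under a stricter cell filter of 1000 genes and a mitochondrial share up to 5% (-0.98, adjusted p = 0.105). The Fgg change was 2.22 without DUX-pulsed library 1 (adjusted p = 0.000322). Within 5 Mb of Fga on chromosome 3, 14 of 55 genes tested were higher and 6 lower, with a median log2 fold change of 0.25, against 0.08 for the chromosome.

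Within the endoderm-gene clusters Fgb was at 302 and 161 CPM in DUX-pulsed cells and 219 and 211 CPM in control cells, and these overlapped (log2 fold change 0.11, SE 0.26, adjusted p = 0.79). Fgg was at 42.1 and 13.8 CPM in DUX-pulsed cells and 1.33 and 1.06 CPM in control cells, a change of 4.56 (SE 0.48, adjusted p = 0.00042), or 3.54 without DUX-pulsed library 1. Fga was at 6.31 and 6.15 CPM in DUX-pulsed cells and 3.10 and 2.66 CPM in control cells, a change of 1.11 (SE 0.20, adjusted p = 0.00388). The Fga and Fgg values rested on the liver-like cluster: without it Fga was lower in DUX-pulsed cells (-2.38, adjusted p = 0.0294), Fgb was lower (-1.29, adjusted p = 0.000307) and Fgg did not pass (0.42, adjusted p = 0.396). The Fga call was also lost with the stricter cell filter (1.10, adjusted p = 0.105) and after thinning each cell to 5000 UMIs (0.64, adjusted p = 0.413).

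The groups drew their fibrinogen from different cells. In DUX-pulsed libraries cluster 15 supplied 56.5% and 80.5% of Fga UMIs, 56.2% and 47.3% of Fgb UMIs and 90.5% and 85.2% of Fgg UMIs. The parietal endoderm-like cluster 3 added 42.4% of the Fga UMIs and 24.6% of the Fgb UMIs of DUX-pulsed library 1, and 1.3% and 2.13% of those of DUX-pulsed library 2, where its cells had a median of 2556 UMIs against 44336.5 in library 1. In control libraries cluster 20, with Timd2 and Fabp1 among its leading genes, supplied 75.7% and 61.8% of Fga UMIs and 38.7% and 29.8% of Fgb UMIs, and it held 1 and 2 DUX-pulsed cells. Fga stood at 15.4 and 17.1 CPM and Fgb at 557 and 654 CPM in the control cells of this cluster.

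**Figure D3:**
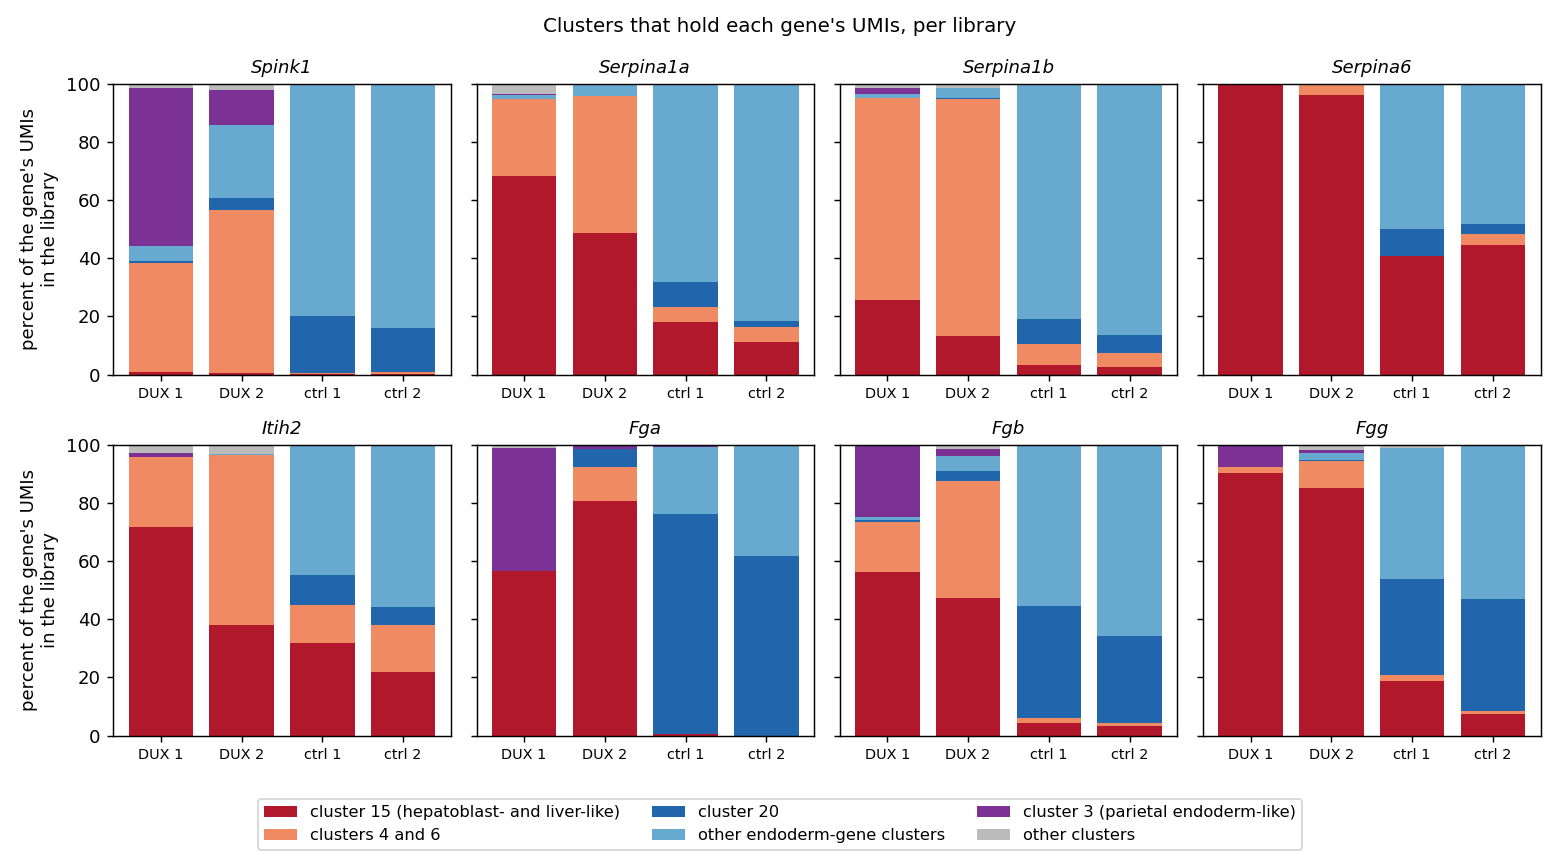
Share of each gene's UMIs, in percent, that came from each cluster or group of clusters in each library, with the DUX-pulsed libraries left of the control libraries. Cluster 15 supplies most Fgg and Serpina6 in DUX-pulsed libraries, and cluster 20 most Fga in control libraries.

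Cluster 15, 54 cells led by Serpina6, Alb and Fgg, passed the marker rule for hepatoblast and liver cells. It held 32 and 8 DUX-pulsed cells and 7 and 7 control cells, or 1.55% and 0.591% of DUX-pulsed cells against 0.248% and 0.266% of control cells. Of the 8 genes, 7 had their highest pooled level there, among them Fgb at 2301 CPM, Itih2 at 528 CPM and Serpina1b at 403 CPM. A test within it, chosen after the data had been seen because of its few cells, called 6.5% of 5310 genes, 3.95% higher and 2.54% lower, and found 4 of the 8 higher in DUX-pulsed cells and none lower. Since the cluster was drawn partly by these genes, its counterpart in a clustering without the 8 genes was tested too. That counterpart had 110 cells, 37 and 15 DUX-pulsed and 30 and 28 control, held each of the 54 cells, and had 7.22% of 8502 genes called.

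In cluster 15 Fgg was at 423 and 502 CPM in DUX-pulsed cells, against 92.4 and 26.2 CPM in control cells (log2 fold change 2.96, adjusted p = 6.38e-13, and 2.30 to 4.10 when each library was left out in turn). Serpina6 was at 486 and 411 CPM in DUX-pulsed cells, against 60.0 and 105 CPM in control cells (2.44, adjusted p = 1.63e-10). Itih2 was at 624 and 836 CPM in DUX-pulsed cells, against 365 and 297 CPM in control cells (1.13, adjusted p = 0.000809), and its call was lost without control library 2 (0.97, adjusted p = 0.186). The libraries of the groups did not overlap for any of the 3. Fga had 96 and 62 UMIs in DUX-pulsed cells and 1 and 0 in control cells, a ratio of 35.4 per UMI sequenced (95% exact counting interval 6.26 to 1407). In DUX-pulsed library 2 a single cell held 79.0% of the Fga, 67.3% of the Fgg and 71.5% of the Serpina6 UMIs of the cluster, and without it the levels were 43.5, 164 and 124 CPM. In the counterpart the changes were 4.20 for Fgg (adjusted p = 0.000136), 3.89 for Serpina6 (adjusted p = 0.000148), and 1.99 for Itih2 (adjusted p = 0.000392), and Fga, with the same UMIs, was called higher (adjusted p = 0.000122). For Fgg the counterpart had 626 and 151 UMIs in DUX-pulsed and 24 and 7 in control cells, and cluster 15 had 626 and 150, and 20 and 6. For Serpina6 it had 718 and 123, and 14 and 26, where cluster 15 had 718 and 123, and 13 and 24. The cells it added were mostly control cells with few of these UMIs. Its larger changes for Fgg and Serpina6 are therefore no separate check of cluster 15.

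The other 4 genes did not pass in cluster 15. Fgb was at 2329.6 and 3260.2 CPM in DUX-pulsed cells and 3566 and 2424 CPM in control cells (-0.10, adjusted p = 0.844). Serpina1a was at 388 and 421 CPM in DUX-pulsed cells and 471 and 236 CPM in control cells (0.19, adjusted p = 0.754), and Serpina1b at 427 and 625 CPM against 508 and 341 CPM (0.29, adjusted p = 0.589). Spink1 was at 265 and 331 CPM in DUX-pulsed cells and 236 and 603 CPM in control cells (-0.52, adjusted p = 0.279). In these 4 genes the libraries overlapped. In the counterpart Fgb was higher (2008 and 1481 CPM in DUX-pulsed cells, against 957 and 643 CPM in control cells, 1.13, adjusted p = 0.0122) and Spink1 lower (-1.53, adjusted p = 0.00628), while the antitrypsin copies did not pass. Since the counterpart added mostly control cells, these calls compare other sets of cells than cluster 15 does.

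**Figure D4:**
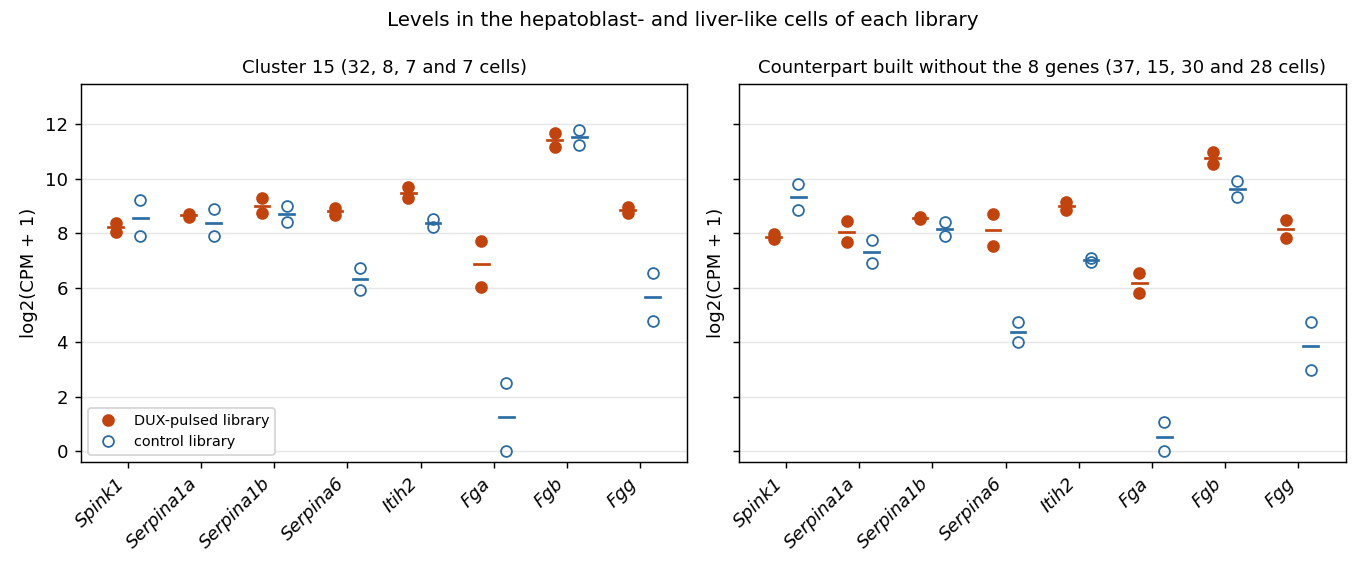
Levels of the 8 genes as log2(CPM + 1) in each library within cluster 15 and within its counterpart from a clustering without the 8 genes, with filled points for DUX-pulsed and open points for control libraries. Fga, Fgg, Serpina6 and Itih2 lie higher in DUX-pulsed libraries in both, and Fgb overlaps in cluster 15.

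Other liver genes moved as well. Over the 11 endoderm-gene clusters, 12 of 17 hepatoblast and liver genes tested were higher in DUX-pulsed cells and 2 lower (median log2 fold change 2.32, against -0.02 for all genes). Of 14 tested in cluster 15, 8 were higher in DUX-pulsed cells and none lower, with a median log2 fold change of 1.88 against -0.03 for all genes. Alb, the main plasma carrier protein, was at 522 and 114 CPM in DUX-pulsed cells and at 0 and 74.2 CPM in control cells (3.16, adjusted p = 9.6e-11). The bikunin precursor Ambp changed by 2.29 and Serpind1, the thrombin inhibitor heparin cofactor II, by 3.34. Of 5 coagulation genes tested 3 were higher, including F2, which encodes prothrombin (3.05), and of 11 other serpins 4 were higher, including antithrombin Serpinc1 (2.25). Ambp, Serpind1, F2 and Serpinc1 are also among the hepatoblast and liver genes counted above. Of 5 Kazal, Kunitz and other inhibitors tested 0 were higher and 3 lower, and of 5 proteases and protease receptors 0 were higher and 1 lower. Of 12 visceral and primitive endoderm genes tested in cluster 15, 2 were higher and none lower (median -0.04): Cited1 (1.06, adjusted p = 0.00798) and Rbp4, a plasma carrier of retinol (0.61, adjusted p = 0.0445).

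The chains were also counted per cell. All 3 fibrinogen chains were detected in 18 of 32 and 4 of 8 DUX-pulsed cells of cluster 15, against 1 of 7 and 0 of 7 control cells. By a rough rule, 3 divided by the number of cells, 0 of 7 allows a share of up to 42.9%. Depth was unequal in cluster 15, with medians of 53136.5 and 41068.5 UMIs in DUX-pulsed and 33451 and 32362 UMIs in control cells. The part of depth in this count was not tested. In cluster 20 the share was 5% of 200 and 5.93% of 135 control cells. Over the whole culture 28 and 5 DUX-pulsed cells had all 3 chains, against 13 and 11 control cells, or 1.36% and 0.37% against 0.46% and 0.417%. Fgb made up 87.7% and 89.1% of chain UMIs in DUX-pulsed libraries, against 98.0% and 98.3% in control libraries. How fully the RNA of each gene was captured and counted was not measured, so only the shift between libraries is read from this share.

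Clusters 4 and 6 held most other DUX-pulsed endoderm, with 155 and 107 DUX-pulsed and 18 and 17 control cells in cluster 4 and 262 and 190 DUX-pulsed and 19 and 18 control cells in cluster 6. Both were led by Cdkn2b and Ghrl, the ghrelin precursor of stomach endocrine cells, and stayed unnamed. In cluster 6, where 12.6% of 10707 genes were called, 5.33% higher and 7.28% lower, Spink1 was lower and Serpina1a, Serpina1b and Itih2 were higher in DUX-pulsed cells, and Fgb did not pass. In cluster 4, where 5.1% of 10366 genes were called, 3.04% higher and 2.06% lower, Serpina1a and Fgb were lower and Spink1, Serpina1b and Itih2 did not pass. Serpina6, Fga and Fgg had too few counts in both clusters to be tested.

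In cluster 6 Spink1 was at 1572 and 1720.3 CPM in DUX-pulsed cells, against 3244 and 5514 CPM in control cells (-1.41, adjusted p = 0.00295). Itih2 was at 22.1 and 34.5 CPM in DUX-pulsed cells, against 8.16 and 4.99 CPM in control cells, from 6 and 3 UMIs (2.06, adjusted p = 0.00874). Serpina1a had 136 and 44 UMIs in DUX-pulsed cells and 1 and 0 in control cells, a ratio of 17.7 per UMI sequenced (95% exact counting interval 3.14 to 703). For these 3 genes the groups did not overlap. Serpina1b was at 148 and 100.0 CPM in DUX-pulsed cells and 17.7 and 81.5 CPM in control cells (1.38, adjusted p = 0.0302), and its call was lost without control library 1 (0.63, adjusted p = 0.161) or DUX-pulsed library 1 (1.15, adjusted p = 0.0986). The Spink1 call was lost without either DUX-pulsed library, at -1.26 (adjusted p = 0.0676) and -1.40 (adjusted p = 0.0663).

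In cluster 4 Serpina1a was at 14.9 and 17.9 CPM in DUX-pulsed cells, against 36.7 and 35.9 CPM in control cells (-1.15, adjusted p = 0.0319). Fgb was at 72.6 and 80.2 CPM in DUX-pulsed cells, against 276 and 124 CPM in control cells (-1.40, adjusted p = 0.0088). Neither overlapped between the groups, but a single cell held 50.6% of the Fgb UMIs of control library 2, and without it that library was at 71.7 CPM, below both DUX-pulsed libraries. Serpina1b was at 111 and 129.9 CPM in DUX-pulsed cells, against 275 and 158 CPM in control cells, and missed the threshold (-0.86, adjusted p = 0.0509). For Serpina1a and Fgb, without a DUX-pulsed library only 7 or 2 genes of the table were called, and both calls were lost. Fgb also lost its call without control library 1 (-0.68, adjusted p = 0.14), as did Serpina1a (-1.11, adjusted p = 0.0546). In the counterpart of cluster 4, which had 9 and 2 control cells, 2.84% of 10025 genes were called. Fgb (-1.34, adjusted p = 0.000147) and Serpina1b (-1.29, adjusted p = 0.000157) were called lower there. The Fgb libraries overlapped, at 68.5 and 83.4 CPM in DUX-pulsed cells and 253 and 54.5 CPM in control cells, from 100 and 5 control UMIs. Serpina1a did not pass in this counterpart (0.33, adjusted p = 0.904). Itih2, with 85 and 132 UMIs in DUX-pulsed and 1 and 0 in control cells, was called higher (adjusted p = 0.0229). In the counterpart of cluster 6, with 12.5% of 10636 genes called, Spink1 was lower (-1.51, adjusted p = 0.00415), Serpina1b (2.68, adjusted p = 9.8e-05) and Itih2 (2.67, adjusted p = 0.0119) were higher and Fgb did not pass (0.24, adjusted p = 0.562). A test of the difference between the clusters, added after these values were seen, called 4.31% of 10775 genes, among them Spink1, Serpina1a, Serpina1b and Itih2 but not Fgb (1.30, SE 0.41, adjusted p = 0.109).

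**Figure D5:**
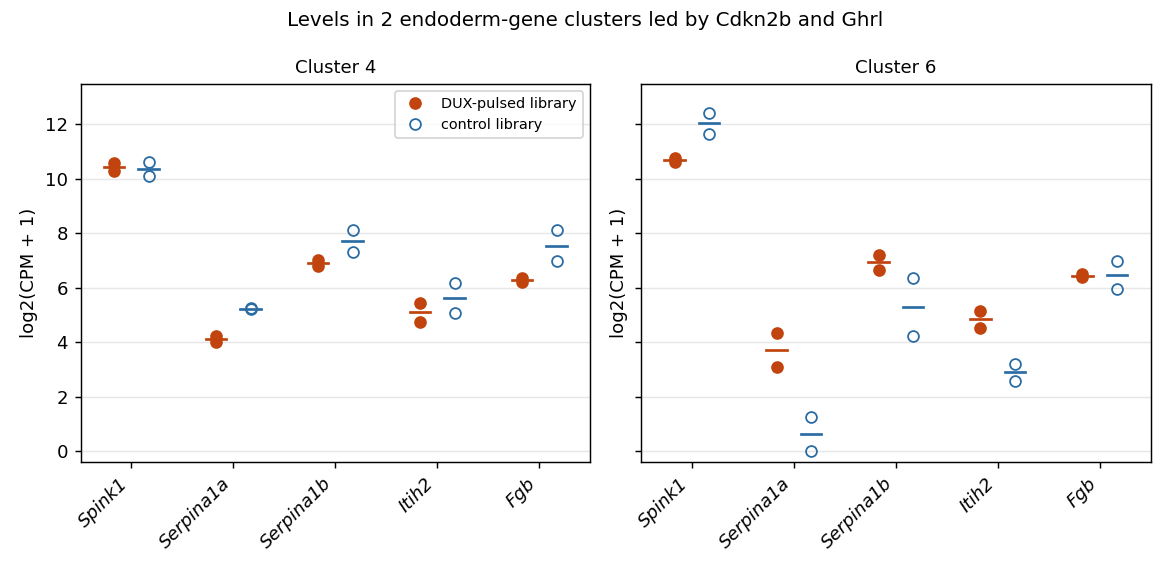
Levels of the 5 genes with enough counts in clusters 4 and 6, as log2(CPM + 1) in each library, with DUX-pulsed (filled) left of control (open). Spink1 lies lower and Itih2 higher in DUX-pulsed cells of cluster 6, and both overlap between the groups in cluster 4.

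Relatives and partners of the 8 genes were described from 7 lists, whose 2 genes of smallest p are named. Over the whole culture, 11 of 18 other serpins tested were higher and 2 lower (median log2 fold change 1.18, against -0.00 for all genes), among them the granzyme inhibitor Serpinb9 (3.50, adjusted p = 0.00251) and Serpinf1, a serpin that blocks no protease, at 23.0 and 15.5 CPM in DUX-pulsed against 2.90 and 1.88 CPM in control cultures. Of 5 genes of the inter-alpha-trypsin inhibitor family and its partners 3 were higher and none lower (median 1.13): Ambp was at 22.5 and 11.9 CPM in DUX-pulsed and 5.32 and 4.05 CPM in control cultures (1.88, adjusted p = 0.0118), and the hyaluronan synthase Has2 changed by 1.13 (adjusted p = 0.00978). Has2 lost its call with the stricter cell filter (0.32) and without control library 2 (0.99). Of 15 other inhibitors, of Kazal, Kunitz and other types such as the Timp genes, 5 were higher and 4 lower (median -0.02), with Spink4 (2.76, adjusted p = 0.00485) and Wfdc2 (1.39, adjusted p = 0.00627) named.

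In a list of trypsin-like and other proteases that also holds the thrombin and protease receptors F2r, F2rl1 and F2rl2, 3 of 13 genes were higher and 5 lower (median 0.66). The higher ones were Prtn3 (1.71, adjusted p = 0.00642) and the receptors F2r (2.91, adjusted p = 0.00264) and F2rl1 (0.95, adjusted p = 0.0338). Prss1, a trypsinogen, was at 0.192 and 0.330 CPM in DUX-pulsed cultures, against 11.8 and 10.2 CPM in control cultures (-5.46, adjusted p = 0.00196), and Prss12 at 18.5 and 15.1 CPM against 177 and 168 CPM (-3.36, adjusted p = 0.00196). Prss1 was also a leading gene of cluster 19, the cluster of the highest Spink1. Of 20 coagulation and fibrinolysis genes 5 were higher and 5 lower (median -0.19). F13a1, whose product cross-links fibrin, was at 10.7 and 10.9 CPM in DUX-pulsed against 0.336 and 0.0486 CPM in control cultures (5.76, adjusted p = 0.00362), with its call lost under the stricter cell filter (4.05), and the protease inhibitor Tfpi2 was at 1.01 and 0.963 CPM against 6.96 and 8.42 CPM (-2.96, adjusted p = 0.00248).

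Of 18 liver transcription factors 5 were higher and 6 lower over the whole culture (median 0.06), and 9 were higher and 2 lower within the endoderm-gene clusters (median 0.55). Cebpb, a C/EBP factor, was at 62.9 and 59.1 CPM in DUX-pulsed and 11.4 and 11.5 CPM in control cultures (2.41, adjusted p = 0.00196), and Foxa3 was at 34.3 and 31.1 CPM against 85.8 and 90.6 CPM (-1.43, adjusted p = 0.00275). Of 9 genes of the acute phase and the interleukin 6 pathway 3 were higher and 2 lower (median 0.37). The heme carrier Hpx was at 28.4 and 26.1 CPM in DUX-pulsed cultures and 72.6 and 75.1 CPM in control cultures (-1.44, adjusted p = 0.00265), and the hemoglobin scavenger Hp at 0.798 and 0.715 CPM against 0.0105 and 0.0122 CPM (called higher, adjusted p = 0.00259). Within the endoderm-gene clusters, 10 of 15 other serpins, 3 of 4 inter-alpha-trypsin inhibitor genes, 4 of 13 Kazal, Kunitz and other inhibitors, 4 of 11 proteases and protease receptors, 3 of 17 coagulation genes and 3 of 8 acute phase and interleukin 6 pathway genes were higher, and 1, 1, 4, 4, 4 and 2 were lower.

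By level over the 23 clusters the 8 genes had different nearest genes among 9843 genes compared. Spink1 was most like Dpp4 (Pearson r = 0.979), Apob (0.974) and Clic6 (0.970). Serpina1a was most like its copies Serpina1d (0.974) and Serpina1c (0.971) and Cyp2c68 (0.954), and Serpina1b was most like Serpina10 (0.976), Akr1c19 (0.963) and Onecut1 (0.960). Serpina6 was most like Mmd2 (0.983), Alb (0.983) and Bhmt (0.970), and Itih2 like Ambp (0.948), Abca8b (0.925) and Pcolce2 (0.921). Fga was most like Slc2a2 (0.934), Lipc (0.905) and Gstm4 (0.828), Fgb like Prodh2 (0.965), Hnf4a (0.963) and Serpinf2 (0.960), and Fgg like Lipc (0.956), Angptl8 (0.955) and Serpind1 (0.95). Among the 8 genes Fgg was closest to Serpina6 (0.939) and Fgb to Serpina1b (0.855), whereas Spink1 and Serpina6 had a correlation of 0.045. The clusters share libraries and differ in depth, so these values describe the clusters and carry no test.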

How the data were processed

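Embryoid body cells were measured by droplet single-cell RNA-seq, and the deposited table holds UMI counts per gene and cell, made by the authors with Cell Ranger 2.2.0 and STAR on mm10, per the submitters' processing notes. Cells were assigned to libraries by the barcode prefix and suffix, the suffix being read as the replicate number. Of 10090 cells, 8876 passed the filter, 7 barcodes of which occurred in 2 libraries. Scrublet marked 27 cells as doublets, too few to have worked, so the 395 cells of highest score were left out as an alternative. Cells were clustered with scanpy 1.11.5 and igraph 0.11.9 (Leiden resolution 1, 2000 variable genes, 30 components, 15 neighbours). Clusters carry a cell type name where at least 3 markers were among their top 30 genes and at least 50% of markers were raised 2-fold, thresholds set after the data had been seen.

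Sums of counts over the cells of a library entered the quasi-likelihood test of edgeR 4.0.16 with TMM scaling in R 4.3.3, on genes with at least 10 counts in 2 libraries and 40 in all, with Benjamini-Hochberg adjustment over all genes and a threshold of 0.05. Single clusters needed 15 cells in every library, or 5 in the added test of cluster 15. The counterpart clusters had no such minimum, and that of cluster 4 held 9 and 2 control cells. Intervals and limits of shares cover counting error only. The scripts were tested on simulated data. The genes, their lists and the tests were chosen with earlier results of these data known. The genes named beside the 8 are the 2 of smallest p in each list, the 3 of highest correlation to each of the 8 and leading genes of clusters, and the other genes named for cluster 15 and the protease list were chosen after their values were seen. Promoters are RefSeq windows of GRCm38.p6, and gene positions are from GENCODE vM21.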

Additional observations from a re-analysis of the deposited data

Results flagged for a closer look

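An interaction fit with each library as a block, added after the data had been seen, called a difference in the DUX-pulsed change between clusters 4 and 6 for 4 of the 5 genes tested. The clusters were drawn partly by these genes. The log2 change in cluster 6 minus that in cluster 4 was -1.44 for Spink1 (SE 0.29, adjusted p = 0.0173), 5.23 for Serpina1a (SE 1.20, adjusted p = 0.0296), 2.24 for Serpina1b (SE 0.53, adjusted p = 0.0322) and 2.59 for Itih2 (SE 0.46, adjusted p = 0.009). The Serpina1a value rests on 1 and 0 UMIs in the control cells of cluster 6. In the clusters drawn without the 8 genes the change in the counterpart of cluster 4 was 0.33 for Serpina1a and 3.49 for Itih2, so the sign in cluster 4 depended on the clustering. Itih2 was 2.67 in the counterpart of cluster 6, below its value for cluster 4, so its difference did not keep its direction. Spink1 (-0.38 and -1.51 in the counterparts of clusters 4 and 6), Serpina1a (0.33 and 4.16) and Serpina1b (-1.29 and 2.68) kept theirs. Clusters 4 and 6 held 17 to 19 control cells per library, but the counterpart of cluster 4 held only 9 and 2. Its Serpina1a value rests on 6 and 0 control UMIs. The cause of these differences was not tested.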

How the results depend on the processing

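The number of genes called over the whole culture was 2042 with the stricter cell filter and 2134 to 4972 when each library was left out in turn. In the endoderm-gene clusters it was 2370 after thinning to 5000 UMIs per cell, 1502 at Leiden resolution 0.5, 1777 with at least 4 of 8 endoderm genes and 2684 to 4285 with each library left out. Nothing in the labels says that the replicate numbers pair the samples, and same-numbered libraries deviated together with r = 0.4685 across genes. With the replicate number as a block, 7184 genes were called over the whole culture and 7438 in the endoderm-gene clusters, and Serpina1a passed over the whole culture (0.74).

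Over the whole culture Serpina1b was -0.26 after thinning and Fgb was -0.98 with the stricter filter, while leaving out libraries gave 0.29 to 1.19 for Serpina1a and -0.24 to 0.11 for Fga. In the endoderm-gene clusters Fga was 1.10 with the stricter filter and 0.64 after thinning, and without the liver-like cluster 15 Serpina6 was -0.68, Fga -2.38, Fgb -1.29 and Fgg 0.42. Fgb there was -0.23 at Leiden resolution 0.5, -0.33 with at least 4 of 8 endoderm genes and -0.42 to 0.49 with libraries left out. Spink1, Serpina1a, Serpina1b and Itih2 kept their direction and call in these clusters under each alternative run.

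In single clusters, leaving out libraries gave -1.06 to 0.30 for Spink1, -0.24 to 0.75 for Serpina1a and -0.37 to 0.18 for Fgb in cluster 15, -0.18 to 0.37 for Spink1 and -1.03 to 0.048 for Itih2 in cluster 4, and -0.52 to 0.50 for Fgb in cluster 6. In the counterpart clusters Fgb was 1.13 for cluster 15, Spink1 -0.38, Serpina1a 0.33 and Itih2 3.49 for cluster 4, and Fgb 0.24 for cluster 6. Serpina1b in cluster 4 was called lower in 3 of 6 alternatives (-0.84 with the replicate block, -1.19 without control library 2 and -1.29 in the counterpart). A lone library left in a group was assumed to vary like the other group. The cause of these shifts was not tested, except that a cluster left out removes its cells. All deposited cells were not run for the endoderm-gene clusters, since cells outside the filter had no cluster. Serpina6, Fga and Fgg were too rarely counted in clusters 4 and 6 to be tested. Median depths there were 40785 and 28317 UMIs per cell, against 39824.5 in cluster 15, where the 3 genes were tested.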
